A study of Homo sapiens with 6 samples.

Results

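The genes described here encode subunits of the ATP-dependent chromatin remodelling complexes of human cells. They are 56 named genes of the SWI/SNF (BAF and PBAF), NuRD, INO80, SRCAP and TIP60, ISWI and CHD remodellers, and each was found by its symbol among the 25365 rows of the expression table. In the libraries labelled si-NRDE2-2, cells were transfected with 20 nM of an siRNA against NRDE2. In the si-Control libraries they received 20 nM of a negative control siRNA (Ambion AM4611). All 6 libraries, 3 in each group, came from MDA-MB-231, a triple-negative breast cancer cell line, with RNA taken 48 h after transfection, and were read as poly(A)-selected mRNA. A single siRNA against NRDE2 (Ambion s30064) was used, so its effects on other transcripts cannot be told apart from those of NRDE2 loss, and nothing says that the replicates were separate cultures.

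Remodellers use the energy of ATP to slide, evict or exchange nucleosomes. SWI/SNF opens promoters and enhancers, and NuRD pairs a CHD ATPase with histone deacetylases. The work of INO80 and SRCAP involves the histone variant H2A.Z, TIP60 joins histone acetylation to H2A.Z exchange, and ISWI spaces nucleosomes. Many subunits come as alternatives of which a complex takes 1, so that a cell holds a mixture of assemblies, and genes for several of them are often mutated in cancers.

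The libraries matched their labels. NRDE2 was 0.230, 0.234 and 0.229 FPKM (a fragment count scaled to transcript length and depth) in si-NRDE2-2 replicates 1, 2 and 3, against 4.39, 4.45 and 3.80 FPKM in si-Control replicates 1, 2 and 3. Of the markers used for the line, VIM, CD44, AXL and EGFR stood between 31.8 and 1260 FPKM in every library. The hormone receptor genes ESR1 and PGR were at most 0.00441 FPKM and CDH1 at most 0.445 FPKM. ERBB2 ran from 10.3 to 12.9 FPKM and GATA3 from 1.96 to 2.36 FPKM. KRT18 and EPCAM, which mark epithelial cells, were at least 261 and 7.43 FPKM. Depth, estimated from the steps between low values, ran from 41200000 fragments (si-NRDE2-2 replicate 3) to 56700000 fragments (si-Control replicate 2). Among the members, the estimated number of fragments in the shallowest library was lowest for DPF1, at 51, followed by SMARCD3, at 302.

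After NRDE2 siRNA, the remodeller genes moved in both directions and mostly by little, with 4 larger falls. These were SMARCD3, a BAF subunit (0.508 times its si-Control level), EP400, the ATPase of the TIP60 complex (0.560 times), CHD3, an ATPase of NuRD (0.630 times), and MTA1, a NuRD scaffold (0.645 times). Of the 56 members, 55 passed the filter on low values, and DPF1 did not. Among these 55, 10 rose and 14 fell at an adjusted p under 0.05 in a limma fit over all 11788 genes that passed the filter, of which 20.9% rose and 23.0% fell. Together 24 of 55 members were called, where 44.0% of all genes tested were, so the share of members called lay at the background. At an unadjusted p under 0.05 limma gave 29 members, where 51.7% of all genes tested passed that limit. The 10 rises became 5 without si-NRDE2-2 replicate 2 and 6 without si-NRDE2-2 replicate 3. Over all genes tested, 2469 rises became 1924 and 2024 in the same fits. A change of at least 1.5-fold downward was found for 4 members, against 1.81% of all genes tested, and upward for 0 members, against 3.25%. The median log2 fold change, si-NRDE2-2 over si-Control on the log2(FPKM + 0.1) scale, was -0.05 over the members and -0.02 over all genes tested, and the median absolute change was 0.13 over the members and 0.14 over all genes. For 27 of the 55 members the groups did not overlap, against 53.5% of all genes. In bulk RNA a lower level in all cells and a loss from some cells cannot be told apart. Each error of a log2 fold change below is its standard error (SE), and each adjusted p is Benjamini-Hochberg adjusted over all 11788 genes.

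**Figure D1:**
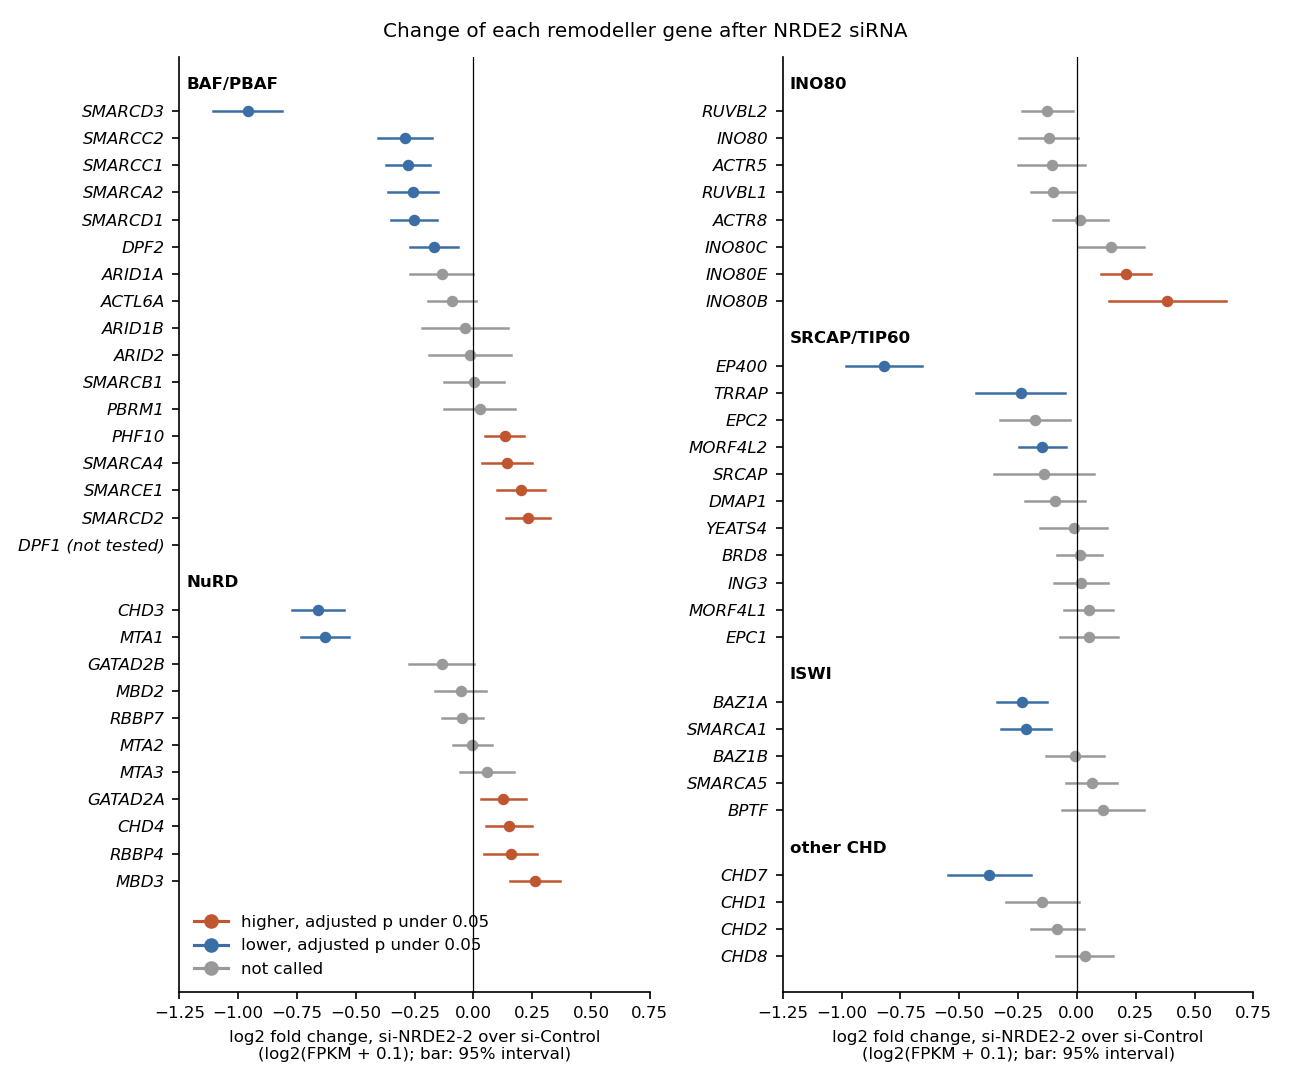
Log2 fold change of each member, si-NRDE2-2 over si-Control on the log2(FPKM + 0.1) scale, with its 95% interval from limma (n = 3 libraries a group), ordered within each complex. SMARCD3, EP400, CHD3 and MTA1 lie furthest from 0, and most other members lie within 0.3 of it.

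The BAF and PBAF genes split into 6 that fell and 4 that rose among 16 tested of 17, with a median log2 fold change of -0.06. Over all genes tested 23.0% fell and 20.9% rose, and the 10 BAF genes called were 62.5% of those tested, where 44.0% of all genes were called. Without si-NRDE2-2 replicate 2 the number that rose was 2, and over all genes tested it went from 2469 to 1924. The 3 SMARCD genes, which encode alternative forms of 1 subunit, all passed the test. SMARCD3, which encodes the BAF60C subunit best known from heart and muscle, was 3.94, 3.59 and 3.63 FPKM in si-NRDE2-2 replicates 1, 2 and 3, against 7.12, 6.99 and 7.88 FPKM in si-Control replicates 1, 2 and 3. Every si-NRDE2-2 library lay below every si-Control library, and the log2 fold change was -0.96 ± 0.07 (adjusted p = 1.4e-06). Its relative SMARCD1 (BAF60A) had 20.8, 20.1 and 20.1 FPKM with si-NRDE2-2 and 24.3, 25.2 and 23.3 FPKM with si-Control, and fell by 0.25 ± 0.05 on the log2 scale (adjusted p = 0.0011). SMARCD2 (BAF60B), known for its role in granulocytes, went the other way. It was 20.4, 19.7 and 19.7 FPKM in the si-NRDE2-2 libraries and 16.5, 17.1 and 17.3 FPKM in the si-Control libraries, a rise of 0.23 ± 0.04 (adjusted p = 0.0013).

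Of the 2 alternative ATPases, SMARCA4 (BRG1) was the more abundant in every library. SMARCA4 was 32.1, 31.2 and 30.4 FPKM with si-NRDE2-2 and 28.3, 29.9 and 26.8 FPKM with si-Control, a small rise without overlap (0.14 ± 0.05, adjusted p = 0.036). SMARCA2 (BRM) was 9.71, 10.4 and 10.5 FPKM with si-NRDE2-2 and 12.3, 12.0 and 12.2 FPKM with si-Control, and fell (-0.26 ± 0.05, adjusted p = 0.0016). The call of SMARCA4 was lost with no filter on low values (adjusted p = 0.0709), with libraries scaled to the same FPKM total (0.0895) and with no variance trend (0.0663). It was also lost on leaving out si-NRDE2-2 replicate 1 or 2 (adjusted p = 0.0875 and 0.0953), or si-Control replicate 1 or 3 (0.0733 and 0.0817). Across all its alternatives the adjusted p of SMARCA4 ran from 6.9e-04 to 0.0953. The SMARCA2 call held in each of the 14 alternatives run.

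Both SMARCC scaffold subunits of BAF fell. SMARCC1 (BAF155) was 19.3, 19.8 and 19.6 FPKM with si-NRDE2-2 and 24.0, 24.3 and 23.0 FPKM with si-Control (-0.28 ± 0.04, adjusted p = 3.7e-04). SMARCC2 (BAF170), its partner in the core dimer, was 11.0, 10.4 and 10.3 FPKM with si-NRDE2-2 and 13.1, 13.5 and 12.3 FPKM with si-Control (-0.29 ± 0.05, adjusted p = 0.0011). Neither gene overlapped between the groups. SMARCE1 (BAF57), an HMG-box subunit, rose, with 42.4, 42.9 and 42.7 FPKM in si-NRDE2-2 libraries and 35.1, 37.4 and 39.0 FPKM in si-Control libraries (0.20 ± 0.05, adjusted p = 0.0050). SMARCB1 (SNF5), the tumour suppressor lost in rhabdoid tumours, averaged 35.0 ± 1.45 FPKM with si-NRDE2-2 and 35.0 ± 2.58 FPKM with si-Control (SD, n = 3 each), and the interval of its log2 difference ran from -0.12 to 0.13.

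The PHD finger subunits that tell BAF from PBAF moved apart. DPF2, of BAF, was 20.9, 20.2 and 19.9 FPKM with si-NRDE2-2 and 21.9, 23.7 and 23.0 FPKM with si-Control (-0.17 ± 0.05, adjusted p = 0.012), and lost its call without si-Control replicate 2 (adjusted p = 0.0701). PHF10, of PBAF, was 35.7, 36.0 and 35.7 FPKM with si-NRDE2-2 and 32.9, 32.7 and 32.4 FPKM with si-Control (0.13 ± 0.04, adjusted p = 0.016). Its call was lost on leaving out si-NRDE2-2 replicate 2 or 3 (adjusted p = 0.0764 and 0.0516) or si-Control replicate 2 (0.0610). In both genes the groups did not overlap. DPF1, the form known from neurons, stayed between 0.748 and 0.912 FPKM in all 6 libraries and was not tested.

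The large DNA-binding and targeting subunits did not pass the test. ARID1A, the BAF subunit most often mutated in cancer, was 10.5, 10.4 and 10.4 FPKM with si-NRDE2-2 and 12.0, 12.1 and 10.4 FPKM with si-Control (-0.14 ± 0.06, adjusted p = 0.096). Its si-Control replicate 3 stood with the si-NRDE2-2 libraries, and without that library ARID1A passed (-0.21, adjusted p = 0.0061). Its alternative ARID1B averaged 2.39 ± 0.129 FPKM with si-NRDE2-2 and 2.45 ± 0.203 FPKM with si-Control. The PBAF genes ARID2 and PBRM1, which encode its ARID subunit and its polybromodomain subunit, had log2 differences of -0.01 ± 0.08 and 0.03 ± 0.07. ACTL6A, an actin-related subunit shared with INO80 and TIP60, was 61.1 ± 2.33 FPKM with si-NRDE2-2 and 65.1 ± 2.23 FPKM with si-Control (-0.09 ± 0.05, adjusted p = 0.13).

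**Figure D2:**
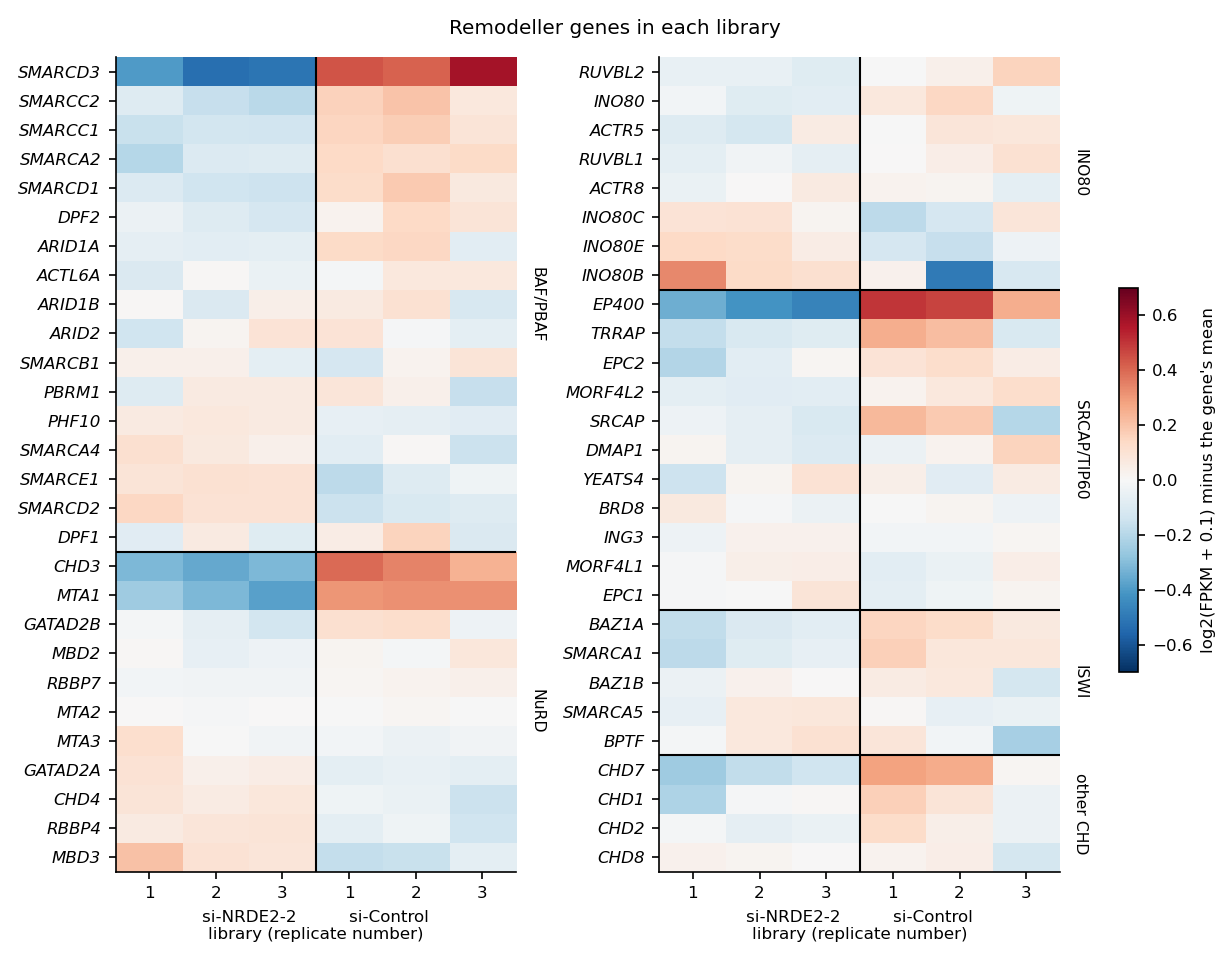
Each member in each library, as log2(FPKM + 0.1) minus the gene's mean over the 6 libraries, with si-NRDE2-2 libraries left of si-Control libraries. SMARCD3, CHD3, MTA1 and EP400 are low in all 3 si-NRDE2-2 libraries, and long genes such as TRRAP, SRCAP and BPTF are lowest among the si-Control libraries in replicate 3.

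In NuRD 2 of 11 genes fell, to 0.630 and 0.645 times their si-Control levels, and 4 rose by less, with a median log2 fold change of -0.004. The 6 called were 54.5% of the 11, beside 44.0% of all genes tested (23.0% lower and 20.9% higher). The number that rose was 1 without si-NRDE2-2 replicate 2 or 3, 2 without si-Control replicate 1, and 1 with libraries scaled to the same FPKM total. Over all genes tested, 1924, 2024, 2125 and 2229 rose in these fits, in that order, against 2469 in the main fit. CHD3 (Mi-2 alpha) was 13.6, 13.2 and 13.6 FPKM with si-NRDE2-2 and 22.3, 21.6 and 20.1 FPKM with si-Control. It fell by 0.66 ± 0.05 on the log2 scale (adjusted p = 2.3e-06). The alternative ATPase CHD4 (Mi-2 beta) was 32.7, 32.0 and 32.5 FPKM with si-NRDE2-2 and 30.1, 29.8 and 27.7 FPKM with si-Control, and rose (0.15 ± 0.04, adjusted p = 0.018). The call of CHD4 was lost with the same FPKM total (adjusted p = 0.0659) and on leaving out si-NRDE2-2 replicate 2 or 3 (0.0513 and 0.0516).

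Among the MTA scaffolds, which hold the deacetylases, MTA1 passed the test and MTA2 and MTA3 did not. MTA1, first found as a gene linked to metastasis, was 15.5, 14.8 and 14.1 FPKM with si-NRDE2-2 and 22.8, 23.0 and 23.0 FPKM with si-Control. Its fall was 0.63 ± 0.05 on the log2 scale (adjusted p = 2.0e-06), with no overlap. MTA2 averaged 37.7 ± 0.193 FPKM with si-NRDE2-2 and 37.8 ± 0.242 FPKM with si-Control, with an interval of the log2 difference from -0.09 to 0.08. For MTA3 the means were 11.8 ± 0.646 FPKM with si-NRDE2-2 and 11.4 ± 0.101 FPKM with si-Control (log2 difference 0.06 ± 0.05, adjusted p = 0.39).

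The methyl-CpG-binding subunits define separate forms of NuRD. MBD3, which binds methylated DNA poorly, rose, with 50.1, 46.6 and 46.0 FPKM in si-NRDE2-2 libraries and 38.7, 39.0 and 41.4 FPKM in si-Control libraries (0.26 ± 0.05, adjusted p = 0.0013). MBD2, which binds methylated DNA, was 10.5 ± 0.236 FPKM with si-NRDE2-2 and 10.9 ± 0.355 FPKM with si-Control (-0.05 ± 0.05, adjusted p = 0.39). GATAD2A (p66 alpha), which links MBD proteins to the CHD ATPase, was 17.7, 16.9 and 17.1 FPKM with si-NRDE2-2 and 15.7, 15.9 and 15.7 FPKM with si-Control (0.13 ± 0.04, adjusted p = 0.031). That call was lost with the same FPKM total (adjusted p = 0.0783), on leaving out si-NRDE2-2 replicate 1, 2 or 3 (0.0547, 0.0712 and 0.0680), and on leaving out si-Control replicate 1 or 2 (0.0835 and 0.0846). GATAD2B averaged 5.95 ± 0.237 FPKM with si-NRDE2-2 and 6.55 ± 0.409 FPKM with si-Control (-0.13 ± 0.06, adjusted p = 0.11) and passed without si-Control replicate 3 (-0.19, adjusted p = 0.0259).

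The histone-binding subunits RBBP4 and RBBP7 are shared with other complexes. RBBP4 was 8.74, 8.89 and 8.90 FPKM with si-NRDE2-2 and 7.97, 8.19 and 7.57 FPKM with si-Control (0.16 ± 0.05, adjusted p = 0.028). It has processed pseudogenes with which reads may be shared, and its call was lost on leaving out si-NRDE2-2 replicate 2 or 3 (adjusted p = 0.0947 and 0.0778) or si-Control replicate 1 or 3 (0.0605 and 0.0606), and with the same FPKM total (0.0994). RBBP7 was 112, 111 and 111 FPKM with si-NRDE2-2 and 114, 115 and 116 FPKM with si-Control, without overlap but not past the test (-0.05 ± 0.04, adjusted p = 0.37).

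Of the 8 INO80 genes 2 rose and 0 fell, with a median log2 fold change of -0.04, where 20.9% of all genes tested rose and 23.0% fell. At an unadjusted p under 0.05, passed by 51.7% of all genes, limma gave 3 higher and 2 lower, the additions being INO80C, RUVBL1 and RUVBL2. The number that fell was 1 without si-Control replicate 1 or 3, and 2 with quantile normalization, the same FPKM total, or length and GC trends removed. The number that rose was 1 without si-NRDE2-2 replicate 1 or with no filter on low values. It was 3 with the same FPKM total, with length and GC trends removed, or without si-Control replicate 3. INO80E, a subunit of the metazoan complex, was 24.1, 23.9 and 22.6 FPKM with si-NRDE2-2 and 20.1, 19.5 and 21.3 FPKM with si-Control (0.21 ± 0.05, adjusted p = 0.0048). INO80B, the counterpart of yeast Ies2, was 11.7, 10.1 and 9.96 FPKM with si-NRDE2-2 and 9.41, 6.53 and 8.53 FPKM with si-Control (0.38 ± 0.11, adjusted p = 0.018). The readthrough locus INO80B-WBP1 overlaps INO80B and ran from 0.549 to 2.14 FPKM. How reads were divided between the pair was not tested, so the INO80B value is uncertain. The INO80B call was lost with no filter on low values (adjusted p = 0.0713) and without si-NRDE2-2 replicate 1 (adjusted p = 0.0764, log2 fold change 0.31), and the log2 fold change without si-Control replicate 2 was 0.23.

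The INO80 ATPase gene itself was 8.29, 7.93 and 7.99 FPKM with si-NRDE2-2 and 8.85, 9.30 and 8.23 FPKM with si-Control (-0.12 ± 0.06, adjusted p = 0.11). Without si-Control replicate 3 it passed (-0.17, adjusted p = 0.0290). RUVBL1 and RUVBL2, the AAA+ ATPases that form a ring shared by INO80, SRCAP and TIP60, were both lower in every si-NRDE2-2 library without passing the test. RUVBL1 averaged 35.4 ± 0.602 FPKM with si-NRDE2-2 and 38.0 ± 1.35 FPKM with si-Control (-0.10 ± 0.04, adjusted p = 0.074). RUVBL2 was 74.4 ± 0.98 FPKM with si-NRDE2-2 and 81.3 ± 4.79 FPKM with si-Control (-0.13 ± 0.05, adjusted p = 0.056), and passed without si-Control replicate 1 (-0.16, adjusted p = 0.0298). Both passed with quantile normalization (adjusted p = 0.0271 for RUVBL1 and 0.00375 for RUVBL2). INO80C, the counterpart of yeast Ies6, averaged 32.1 ± 1.0 FPKM with si-NRDE2-2 and 29.1 ± 2.86 FPKM with si-Control (0.15 ± 0.06, adjusted p = 0.086). INO80C passed without si-Control replicate 3 (0.22, adjusted p = 0.0035), with the same FPKM total (adjusted p = 0.0408) and with length and GC trends removed (0.0164). ACTR5 and ACTR8, actin-related subunits that contact the nucleosome, had log2 differences of -0.11 ± 0.06 and 0.01 ± 0.05.

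Of the 11 SRCAP and TIP60 genes 3 fell and 0 rose, with a median log2 fold change of -0.09. The 3 falls were 27.3% of the 11, near the 23.0% of all genes tested that fell, and 20.9% of all genes rose. At an unadjusted p under 0.05, passed by 51.7% of all genes, limma gave 0 higher and 4 lower, and with no variance trend 0 rose. The number that fell was 1 without si-NRDE2-2 replicate 1 or 2 or si-Control replicate 2. Over all genes tested, 2657, 2070 and 2008 fell in these fits, in that order, against 2716 in the main fit. EP400, the ATPase that exchanges H2A.Z in the TIP60 complex, was 4.41, 4.17 and 4.03 FPKM with si-NRDE2-2 and 7.98, 7.82 and 6.71 FPKM with si-Control. It fell by 0.82 ± 0.07 on the log2 scale (adjusted p = 8.7e-06), and its related locus EP400NL was at most 1.09 FPKM. SRCAP, the ATPase of the sister complex, was 7.49, 7.34 and 7.11 FPKM with si-NRDE2-2 and 9.0, 8.74 and 6.67 FPKM with si-Control. Its groups overlapped and it did not pass (-0.14 ± 0.10, adjusted p = 0.26), whereas without si-Control replicate 3 it did (-0.27, adjusted p = 0.0030).

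TRRAP, a scaffold shared with the SAGA acetyltransferase, was 7.0, 7.30 and 7.42 FPKM with si-NRDE2-2 and 9.39, 9.16 and 7.30 FPKM with si-Control (-0.24 ± 0.09, adjusted p = 0.041). The groups overlapped at si-Control replicate 3. The TRRAP call was lost with no filter on low values (adjusted p = 0.108), the same FPKM total (0.0964) and no variance trend (0.0632). It was lost as well on leaving out any si-NRDE2-2 replicate (0.109, 0.0797 and 0.0579 for 1, 2 and 3) or si-Control replicate 1 or 2 (0.145 and 0.154). MORF4L2, a chromodomain-lacking relative of MORF4L1, was 216, 215 and 215 FPKM with si-NRDE2-2 and 230.2, 239 and 247 FPKM with si-Control (-0.15 ± 0.05, adjusted p = 0.024). It lost its call on leaving out any si-NRDE2-2 replicate (adjusted p = 0.0503, 0.102 and 0.0845 for 1, 2 and 3) or si-Control replicate 2 (0.0863). MORF4L1 averaged 149 ± 3.03 FPKM with si-NRDE2-2 and 144 ± 6.31 FPKM with si-Control (0.05 ± 0.05, adjusted p = 0.41). The 2 genes are close in sequence and have pseudogenes, so reads may be split between copies.

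The other TIP60 and SRCAP members did not pass the test. EPC2, a scaffold of the acetyltransferase module, was lower in every si-NRDE2-2 library, with 4.36 ± 0.336 FPKM, against 4.94 ± 0.126 FPKM with si-Control (-0.18 ± 0.07, adjusted p = 0.052), and passed without si-NRDE2-2 replicate 3 (-0.23, adjusted p = 0.0296). Its alternative EPC1 had a log2 difference of 0.05 ± 0.06. DMAP1, BRD8, ING3 and YEATS4, which bind histones or recruit the complex, had log2 differences of -0.09 ± 0.06, 0.01 ± 0.04, 0.02 ± 0.05 and -0.01 ± 0.06.

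Of the 5 ISWI genes 2 fell and 0 rose, with a median log2 fold change of -0.007, where 44.0% of all genes tested were called and 23.0% fell. At an unadjusted p under 0.05 limma also gave 0 higher, and with no variance trend 0 rose. The median was -0.07 without si-Control replicate 3, and BPTF was a rise with length and GC trends removed (adjusted p = 0.0386). SMARCA1 (SNF2L) was 28.6, 30.6 and 31.3 FPKM with si-NRDE2-2 and 36.5, 34.3 and 34.3 FPKM with si-Control, and fell (-0.22 ± 0.05, adjusted p = 0.0041). The second ISWI ATPase, SMARCA5 (SNF2H), was 17.4, 19.1 and 19.1 FPKM with si-NRDE2-2 and 18.2, 17.4 and 17.6 FPKM with si-Control (0.06 ± 0.05, adjusted p = 0.33). BAZ1A (ACF1), a partner of SMARCA5 in the ACF and CHRAC complexes, was 11.9, 12.5 and 12.8 FPKM with si-NRDE2-2 and 14.9, 14.7 and 14.1 FPKM with si-Control (-0.23 ± 0.05, adjusted p = 0.0027). Neither SMARCA1 nor BAZ1A overlapped between the groups, and both calls held in each of the 14 alternatives. BAZ1B (WSTF), a further partner of SMARCA5, averaged 21.2 ± 0.534 FPKM with si-NRDE2-2 and 21.4 ± 1.57 FPKM with si-Control. BPTF, the large reader subunit of NURF, averaged 6.23 ± 0.272 FPKM with si-NRDE2-2 and 5.79 ± 0.642 FPKM with si-Control (0.11 ± 0.08, adjusted p = 0.28).

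Of the 4 other CHD ATPase genes 1 fell and 0 rose, with a median log2 fold change of -0.11, where 23.0% of all genes tested fell and 20.9% rose. At an unadjusted p under 0.05 limma also gave 0 higher and 1 lower. Without si-Control replicate 3 the number that fell was 3, and over all genes tested it went from 2716 to 2816. CHD7, mutated in CHARGE syndrome, was 3.09, 3.25 and 3.34 FPKM with si-NRDE2-2 and 4.5, 4.43 and 3.72 FPKM with si-Control (-0.37 ± 0.08, adjusted p = 0.0034). It passed in each of the 13 alternatives in which it was tested. CHD1, which binds the H3K4 methyl mark of active promoters, was 12.4, 14.3 and 14.5 FPKM with si-NRDE2-2 and 16.2, 15.4 and 14.0 FPKM with si-Control (-0.15 ± 0.07, adjusted p = 0.12). CHD2 was 17.9, 17.4 and 17.5 FPKM with si-NRDE2-2 and 19.8, 18.6 and 17.6 FPKM with si-Control (-0.08 ± 0.05, adjusted p = 0.21). Without si-Control replicate 3 both passed (CHD1 -0.20, adjusted p = 0.0423, and CHD2 -0.13, adjusted p = 0.0489). CHD8, a gene often mutated in autism, had a log2 difference of 0.03 ± 0.05.

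**Figure D3:**
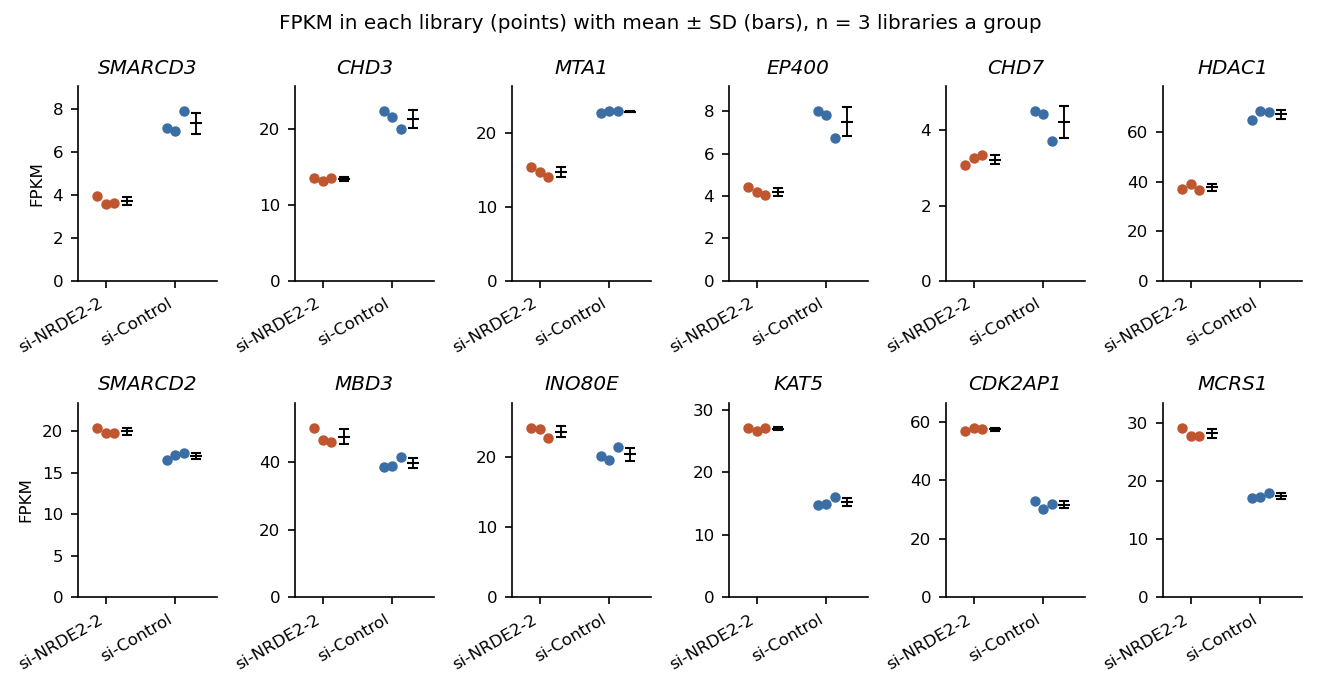
FPKM in each of the 3 libraries a group (points) with the group mean ± SD (bar), for 8 members (SMARCD3, CHD3, MTA1, EP400, CHD7, SMARCD2, MBD3 and INO80E) and the further subunits HDAC1, KAT5, CDK2AP1 and MCRS1, with each vertical axis from 0. In every panel the si-NRDE2-2 points lie wholly above or wholly below the si-Control points. The genes shown were picked from those called in the main fit. Over all genes tested 53.5% did not overlap between the groups, and 27 of the 55 tested members did not.

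Subunits outside the 56 genes were read from a list of 44 further genes of the same complexes, of which 41 passed the filter and ACTL6B, CHD5 and CECR2 did not. ACTL6B was listed at 0 in every library. Of the 41, 9 rose and 7 fell, where the whole table had 20.9% and 23.0%, and 4 changed by at least 1.5-fold. Of these 4, CDK2AP1, KAT5 and MCRS1 were higher and HDAC1 was lower, where 3.25% of all genes tested were higher and 1.81% lower by that much. HDAC1, the main deacetylase of NuRD, fell to 37.1, 39.1 and 36.6 FPKM with si-NRDE2-2, against 64.9, 68.2 and 67.9 FPKM with si-Control (-0.83 ± 0.04, adjusted p = 2.0e-07). HDAC2, a related deacetylase, was 20.3 ± 0.0808 FPKM with si-NRDE2-2 and 18.4 ± 0.696 FPKM with si-Control (0.15 ± 0.04, adjusted p = 0.020). Its call was lost on leaving out si-NRDE2-2 replicate 2 or 3 (adjusted p = 0.0745 and 0.0555), without si-Control replicate 1 or 2 (0.0748 and 0.0856) and with length and GC trends removed (0.170). CDK2AP1, a small NuRD subunit, was 56.8, 57.9 and 57.6 FPKM with si-NRDE2-2 and 32.8, 30.2 and 32.0 FPKM with si-Control (0.86 ± 0.04, adjusted p = 1.6e-07). All 5 further NuRD genes that passed the filter were called in the main fit, where 44.0% of all genes tested were. ZMYND8, a chromatin reader, went downward (-0.21 ± 0.05, adjusted p = 0.0031) and PWWP2A, which binds H2A.Z, upward (0.30 ± 0.06, adjusted p = 0.0027).

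KAT5, the acetyltransferase that gives the TIP60 complex its name, rose while EP400 fell. It was 27.1, 26.7 and 27.1 FPKM with si-NRDE2-2 and 14.8, 14.9 and 16.0 FPKM with si-Control (0.82 ± 0.05, adjusted p = 2.7e-07). MRGBP, which binds MORF4L1, rose by 0.22 ± 0.04 (adjusted p = 0.0018) and the chromatin reader gene MBTD1 fell by 0.26 ± 0.06 (adjusted p = 0.0065), both in the same complex. In INO80, MCRS1 was 29.2, 27.8 and 27.8 FPKM with si-NRDE2-2 and 17.1, 17.2 and 18.0 FPKM with si-Control (0.69 ± 0.04, adjusted p = 6.4e-07). The deubiquitinase gene UCHL5 fell by 0.27 ± 0.04 (adjusted p = 2.8e-04), and NFRKB had -0.20 ± 0.06 (adjusted p = 0.027), a call lost on leaving out si-NRDE2-2 replicate 2 or 3 (adjusted p = 0.0898 and 0.0815) or si-Control replicate 1 or 2 (0.1 and 0.111), with no filter on low values (0.0651) and with the same FPKM total (0.0739). In BAF, SS18, fused to SSX in synovial sarcoma, rose (0.23 ± 0.04, adjusted p = 7.6e-04), as did its relative SS18L1 (0.26 ± 0.07, adjusted p = 0.014), whose call was lost without si-Control replicate 2 (0.0523). The ISWI partners POLE3, of CHRAC (0.24 ± 0.04, adjusted p = 0.0014), BAZ2A, of NoRC (-0.26 ± 0.06, adjusted p = 0.0063) and CHRAC1 (-0.13 ± 0.04, adjusted p = 0.034) also passed. That of CHRAC1 was lost on leaving out si-NRDE2-2 replicate 1 or 2 (adjusted p = 0.0579 and 0.12) or si-Control replicate 1 or 2 (0.12 and 0.0682), with the same FPKM total (0.0806) and with no variance trend (0.0534). None of the 5 further CHD and related genes passed (CHD1L, CHD6, CHD9, HELLS and ATRX), although HELLS did without si-Control replicate 3 (-0.23, adjusted p = 0.0164).

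The shares of related subunits in their summed FPKM were set side by side, since many are alternatives for 1 place in a complex. SMARCC1 and SMARCC2 are instead partners in the core dimer. SMARCD3 held 8.46 ± 0.252% of the SMARCD1, SMARCD2 and SMARCD3 total with si-NRDE2-2 and 15.1 ± 1.07% with si-Control (SD, n = 3 each), and SMARCD2 45.3 ± 0.153% with si-NRDE2-2 and 35.0 ± 0.653% with si-Control. CHD3 held 29.3 ± 0.176% of the CHD3 and CHD4 total with si-NRDE2-2 and 42.2 ± 0.356% with si-Control. The share of MTA1 among the 3 MTA genes was 23.0 ± 0.643% with si-NRDE2-2 and 31.8 ± 0.0976% with si-Control. HDAC1 made up 64.9 ± 0.733% of HDAC1 plus HDAC2 with si-NRDE2-2 and 78.5 ± 0.551% with si-Control. SMARCA4 made up 75.4 ± 1.24% of SMARCA4 plus SMARCA2 with si-NRDE2-2 and 69.9 ± 1.32% with si-Control, while SMARCC1 kept 64.9 ± 1.04% of the SMARCC pair with si-NRDE2-2 and 64.7 ± 0.333% with si-Control. These are shares of mRNA per length and not of protein or of assembled complexes.

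**Figure D4:**
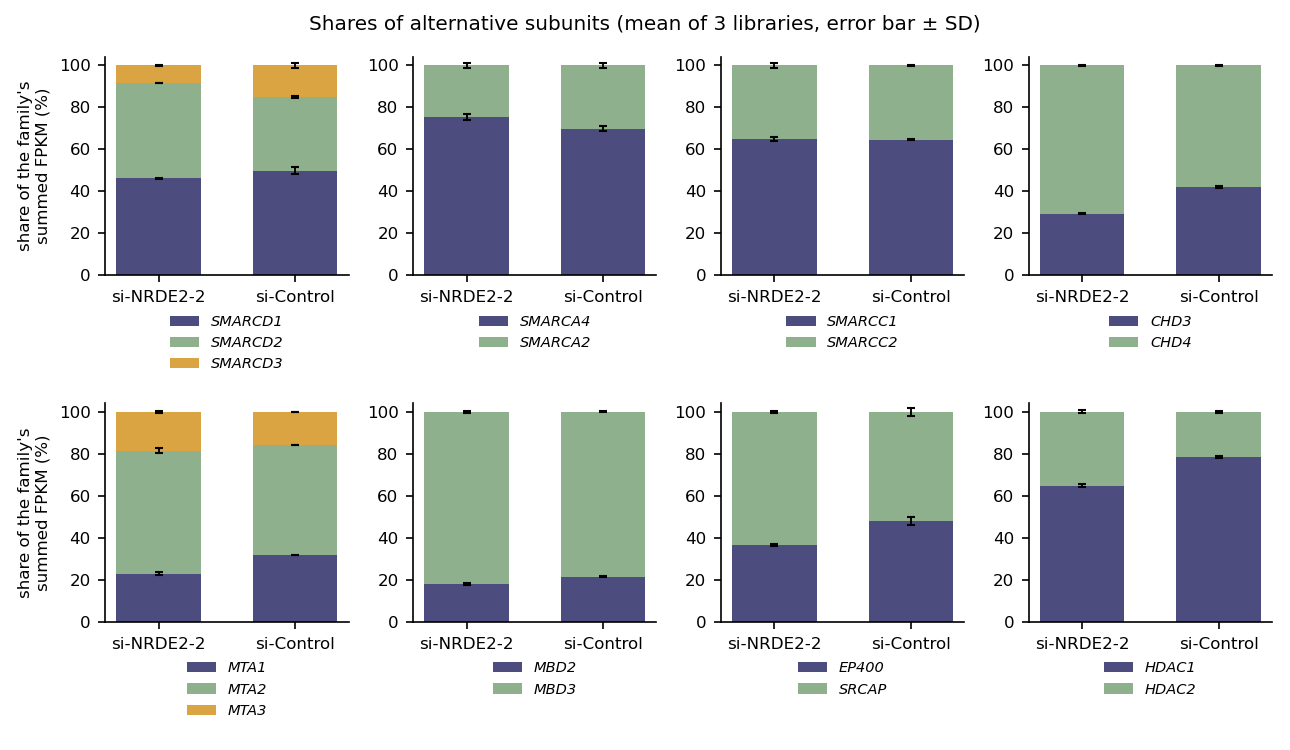
Share of each gene in its family's summed FPKM, in percent, as the mean of 3 libraries with ± SD, si-NRDE2-2 left of si-Control. The families are alternative or partner subunits, except EP400 and SRCAP, which are ATPases of separate complexes. The shares of SMARCD3, CHD3, MTA1, EP400 and HDAC1 are smaller with si-NRDE2-2, and those of the SMARCC pair are nearly equal in both groups.

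For 17 pairs of alternative or partner subunits the log2 ratio was compared per library with an exact two-sided permutation test, which with 3 against 3 libraries cannot go below p = 0.10. The groups did not overlap for 14 pairs, 7 with a higher and 7 with a lower ratio, and each of these had the smallest possible p (adjusted p = 0.121 over the 17 pairs), so no pair can pass. How often the ratios of other gene pairs separate was not tested. Taken singly, 53.5% of all genes tested did not overlap between the groups. CHD4 over CHD3 had the largest difference, 0.81 on the log2 scale, with a ratio of 2.40 in si-NRDE2-2 and 1.37 in si-Control libraries. Next came EP400 over SRCAP (-0.68), which are ATPases of separate complexes. MTA1 over MTA2 (-0.63), SMARCD1 over SMARCD2 (-0.48) and SMARCA4 over SMARCA2 (0.40) followed. SMARCA5 over SMARCA1 was 0.615 in si-NRDE2-2 and 0.507 in si-Control libraries. The ratios of SMARCC1 to SMARCC2 (log2 difference 0.02, exact p = 0.8), RUVBL1 to RUVBL2 (0.02, exact p = 0.5) and ARID2 to ARID1A (0.12, exact p = 0.3) overlapped between the groups.

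Transcript length moved with the values of 2 libraries, si-NRDE2-2 replicate 1 and si-Control replicate 3. Over all genes tested, si-NRDE2-2 replicate 1 differed from the mean of si-NRDE2-2 replicates 2 and 3 by a median log2 difference of 0.04 for transcripts of at most 2 kb and -0.09 for those longer than 8 kb. Over all genes tested with a transcript longer than 8 kb, si-Control replicate 3 lay below the mean of the other 2 control replicates by a median log2 difference of -0.16, and above it by 0.11 for transcripts of at most 2 kb. The 9 members longer than 8 kb (ARID1A, ARID2, EP400, TRRAP, SRCAP, BPTF, CHD1, CHD2 and CHD7) were all lowest in replicate 3 among the si-Control libraries, with a median of -0.23. Of these 9, 3 fell and 0 rose, where 19.2% of all 782 genes of that length fell and 15.2% rose. Their median log2 fold change was -0.14, against -0.02 over the 782 genes. Across the 55 members Spearman's rho between log2 fold change and transcript length was -0.22, and across 11088 tested genes with a known length 0.02. Genes are not independent replicates and share the same 6 libraries. With length and GC trends removed from each library, 12 of the 55 members rose and 20 fell. Calls also grew in number over all genes. Of the 11088 genes in that fit 2900 rose and 3320 fell, against 2469 and 2716 of the 11788 in the main fit. EP400 was at -0.73 and CHD7 at -0.34 on the log2 scale. All 24 called members kept their call, and the 8 added were INO80C and BPTF upward and ACTL6A, GATAD2B, INO80, RUVBL1, EPC2 and CHD1 downward. The part of length in the other values was not tested.

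**Figure D5:**
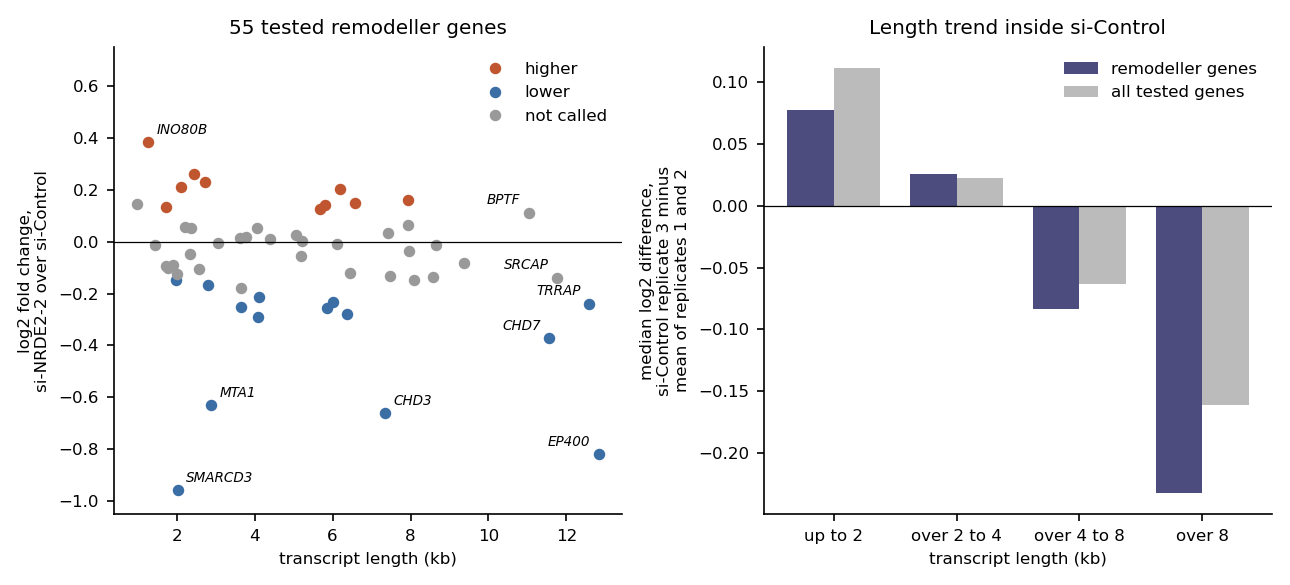
Left, log2 fold change of the 55 tested members (si-NRDE2-2 over si-Control) against transcript length in kb, with colours for the limma call. Right, median log2 difference of si-Control replicate 3 from the mean of replicates 1 and 2 by length class, for members and for all tested genes, which goes from above 0 for transcripts of at most 2 kb to -0.16 over all genes and -0.23 over members beyond 8 kb.

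No source used here gives the siRNA's sequence. An earlier scan of these same fold changes had picked 3 motifs in 3′ untranslated regions, which were looked up in those of the members on the transcript strand alone. They were GACGTA, held by 1 member, then GACAGTA, held by 3 members, and last GACTGTA, held by 7 members. Of the 55 tested members, 11 (20.0%) held at least 1 match, and of all 10626 tested genes with such a region 18.1% did. Among the members called, GATAD2A, which rose, and CHD7, which fell, held a match, and the other 22 held none, SMARCD3, EP400, CHD3 and MTA1 included. Of the 37 further subunits tested that had such a region, 24.3% held a match, whatever their call. Of the 9 further subunits that rose, CDK2AP1, HDAC2 and SS18L1 held a match, and KAT5, MCRS1, SS18, PWWP2A, MRGBP and POLE3 held none. Of the 7 further subunits that fell, ZMYND8 had no 3′ untranslated region in the transcript used, so it could not be searched. The others held no match. The matches of GATAD2A, CDK2AP1, HDAC2 and SS18L1 are printed 5′ to 3′ from the GENCODE release 29 transcripts, with the match in capitals. These genes were picked by direction, as the members and partners that rose and carry a site. The match of CHD7, which fell, is not printed.
GATAD2A: gctctcctattgGACGTAgaggcaggggag
CDK2AP1: tttcatactaaGACTGTAagtagatctca
HDAC2, first match: actttggcatgGACTGTAtttattttcaa
HDAC2, second match: gcccattttaaGACTGTAggagtgtaact
SS18L1, first match: cagggatcagtGACTGTAttccaaataaa
SS18L1, second match: cagtcggagtttGACGTAtaaattgtttat
The part of these matches in the values of GATAD2A, CDK2AP1, HDAC2 and SS18L1 was not tested.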

How the data were processed

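mRNA was measured in 6 libraries of MDA-MB-231 cells, 3 a group. The authors deposited values per gene and library under a name that says counts, and these were read as FPKM. STAR 2.5.1b, DESeq2 1.10.1 and hg19 are named, per the submitters' processing notes, without what each did. The program, annotation and strand setting behind the FPKM values were not given in any source used here. Another 4 columns of the table were not used.

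No scaling was added. A gene was tested where 3 or more libraries had 1 FPKM or more, and 160 small RNA rows were left out. log2(FPKM + 0.1) was fitted with limma 3.58.1 (R 4.3.3; trended, robust prior variance; 2 groups; Benjamini-Hochberg adjustment), which was also run on simulated data with known changes, and an adjusted p under 0.05 was called. A fold change on this scale understates the change of low genes. A ratio of levels is that of mean FPKM. P-values measure the spread between these libraries, which may be technical.

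Depth came from the steps between low FPKM values. After depth scaling, 53.2% of 2303 low genes had whole multiples within 0.02, and 224 genes set the absolute scale, with quartiles of 48200000 and 57600000 fragments. Lengths, GC content and 3′ untranslated regions were those of 1 transcript a gene in GENCODE release 29, which is of GRCh38 where the table is of hg19, so no coordinates are given.

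Every member was named. Of the further subunits, those named were up to 3 a complex with the smallest adjusted p and any changed at least 1.5-fold. HDAC2, ZMYND8, HELLS and the other uncalled CHD genes were named after their values were seen. The members and lists were chosen with earlier results of these data known, and the shares of summed FPKM were added after the values were seen. A subunit shared by complexes was counted once. The alternatives were another pseudocount, filter, scaling or variance model, length and GC trends removed, the replicate number as a block, and each library left out in turn.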

Additional observations from a re-analysis of the deposited data

How the results depend on the processing

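Across 14 alternatives, 15 of the 24 called members kept their call in each one in which they were tested, 9 lost it in at least 1, and 12 members not called were called in at least 1. Among the members and the further subunits 0 called genes changed direction. With single libraries left out, 5 to 9 members were higher and 11 to 20 lower. Over all genes tested, 1921 to 2678 were higher and 2008 to 2816 lower in these fits, against 2469 and 2716 in the main fit. BAF had 2 to 3 higher, NuRD 1 to 3 higher, and INO80 1 to 3 higher and 0 to 1 lower. SRCAP and TIP60 had 1 to 4 lower and the other CHD genes 1 to 3 lower. The ISWI median ran from -0.069 to 0.027. With the same FPKM total, NuRD had 1 higher and INO80 2 lower, and with quantile normalization INO80 had 2 lower. With length and GC trends removed INO80 had 2 lower, ISWI 1 higher and the CHD genes 2 lower. With no filter on low values INO80 had 1 higher and the median over all genes was -0.0068. With a mean of at least 5 FPKM the BAF median was -0.11 and 0 CHD genes were lower, since CHD7 was no longer tested. Deviations from the group means correlated at -0.12, 0.11 and -0.12 between the groups for replicate numbers 1, 2 and 3. These values cannot exclude pairing by replicate number, since such deviations cancel out within each group. With the replicate number as a block, 8 members were higher and 13 lower, NuRD having 2 higher, and 4686 genes were called in all, against 5185 without it. The block ended the calls of GATAD2A (adjusted p = 0.0729), RBBP4 (0.0580), MORF4L2 (0.0682) and, among the further subunits, CHRAC1 (0.0741). Except for the filter, the cause of these shifts was not tested. Depth limits DPF1 most.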
